A study of Rattus norvegicus with 6 samples.

Results

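Splicing factors are the proteins that decide which pieces of a primary transcript are joined into messenger RNA. The group described here is a list of 42 such genes in neonatal rat heart muscle cells, chosen by name: SR proteins with the related Tra2 pair, heterogeneous nuclear ribonucleoproteins (hnRNPs), the polypyrimidine tract binding proteins, regulators known from muscle, and core proteins of the spliceosome. A probe was assigned to a gene through its RefSeq accession, and 38 of the 42 genes had a measured probe, out of 11579 named genes and 19916 features (named genes and unnamed probes) tested. Srsf11, Hnrnpc, U2af2 and Snrnp70 had no matched probe and are not analysed here. Brightness over all 6 arrays chose which probe stood for a gene. The gene names were proposed with earlier results of the same comparison known, so the counts and adjusted p-values given for them are a description and support nothing about the list.

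Primary ventricular myocytes of Sprague-Dawley rats aged 1 to 2 days, labelled male, were transfected with an siRNA against uc.323, a transcribed ultraconserved region, or with a scrambled siRNA (si-scramble). Cells of both groups had grown for 36 h in serum with bromodeoxyuridine after preplating to reduce fibroblasts, received siRNA at 50 nmol/L for 3 h without serum, were kept serum-free for 21 h more, and were collected 24 h after the siRNA was added. Each group had 3 cultures, described as independent experiments, and each culture had 1 Agilent 1-colour array. The labels do not say whether cultures shared litters, so p-values reflect only how far these 6 samples spread. The comparison shows which transcripts differed between the groups given each siRNA. The knockdown of uc.323 itself was not checked.

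Introns are recognised at their start by the U1 particle and at their end by U2AF and the SF3 complexes. SR proteins mostly promote the use of exons to which they bind, hnRNPs often oppose it, and muscle regulators such as RBM20, RBFOX1 and the CELF and MBNL families set the exon choice of sarcomere and calcium-handling genes in the heart. The array measures the summed signal of a gene's transcripts at 1 probe position and does not measure exon choice. The siRNA sequence given by the study is shown because bases 2 to 7 of its 19 bases, in capitals, spell GUAAGU, the usual first letters of an intron at the splice site that U1 reads. This is a match of letters only.
si-uc.323: gGUAAGUaauuucagcaau

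Signal is given as log2 of the processed intensity relative to the 75th percentile of the same array, so 0 means a probe as bright as that percentile, and levels of different probes are not compared. Slides were inferred from a scan identifier that arrays share in the file headers, since the labels name none. By it, the first slide carried si-uc.323 replicate 1 with the 3 controls, and the second carried si-uc.323 replicates 2 and 3. Between 71.8% and 73.8% of probes were well above background on the first slide, and 78.2% and 86.4% on the second. All 38 members were well above background on all 6 arrays. The 11 listed cardiomyocyte markers were as well, and so were 9 of 10 fibroblast and 7 of 8 leukocyte markers, so RNA of other heart cells was present in both groups. In such bulk samples, fewer cells of a type and less RNA per cell cannot be told apart. The summed relative signal of 3 measured proliferation markers (Ccnb1, Cdk1, Bub1) was 4.54 to 4.65 in si-scramble and 6.74 to 6.95 in si-uc.323. That of 9 fibroblast markers was 125 to 136 and 127 to 159, of 7 smooth muscle markers 39.6 to 43.7 and 41.5 to 49.5, of 7 leukocyte markers 15.0 to 15.8 and 13.2 to 17.1. The 11 cardiomyocyte markers summed to 295 to 307 and 257 to 278, and 6 endothelial markers to 11.1 to 12.5 and 5.60 to 8.61. Erythroid markers (3 measured) summed to 3.32 to 3.88 and 2.83 to 3.71, and Schwann and neural markers (5) to 1.42 to 1.81 and 1.62 to 1.68. The proliferation, cardiomyocyte and endothelial sums did not overlap between groups, but a sum follows its brightest markers. Of the 11 cardiomyocyte markers, 6 were higher and 5 lower by group mean, with a median log2 difference of 0.01. The groups were apart for 5 on the lower side (16.5% of all features) and for 2 on the higher side (18.6%). Only Actc1 passed an adjusted p of 0.05 in the limma fit described below. It was lower (-0.63), where 2.45% of all features passed on that side. Of the 6 endothelial markers, 3 were higher and 3 lower, with a median of 0.06, and the brightest, Kdr, differed by -0.76. All 3 proliferation markers were higher. Where the sums overlapped, single markers could still differ. Of 7 smooth muscle markers 6 were higher (median 0.41, all features 0.04), with 3 apart on the higher side (18.6% of all features). Of 9 fibroblast markers 7 were higher (median 0.18), and Postn (0.69) passed, where 3.18% of all features passed as higher. The leukocyte, erythroid and Schwann and neural medians were -0.03, -0.29 and 0.19, and the erythroid Hbb (-0.61) passed as lower. The part of any list in the results below was not tested.

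With si-uc.323, 3 SR proteins (Srsf1, Srsf3 and Srsf10) and 2 hnRNPs (Hnrnpa2b1 and Hnrnpd) were higher and the muscle regulator Rbfox1 was lower at an adjusted p under 0.05 in the fit over all features. The calls were 5 of 38 members higher, where 3.18% of all features were called higher, and 1 of 38 lower, where 2.45% were. At an unadjusted p under 0.05, 9 members were higher, where 16.1% of all features were, and 3 were lower, where 11.9% were, or 28% in either direction. In both directions together, 6 of 38 were called, where 5.63% of all features were. The values of the groups were fully apart for 11 members on the higher side (18.6% of all features) and 4 on the lower side (16.5%), or 15 in either direction (35.1%). The median log2 fold change of the members was 0.12, against 0.04 for all features. A positive value was found in 26 of 38 members and in 54.9% of all features. Members varied less among si-scramble arrays (median SD 0.087 on the log2 scale) than among si-uc.323 arrays (0.174), as did all features (0.107 and 0.222). The si-scramble arrays shared 1 slide and the si-uc.323 arrays lay on both, so spread among cultures and between slides cannot be told apart. The plot of every member on every array shows both the families and the slide on which each array lay.

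**Figure D1:**
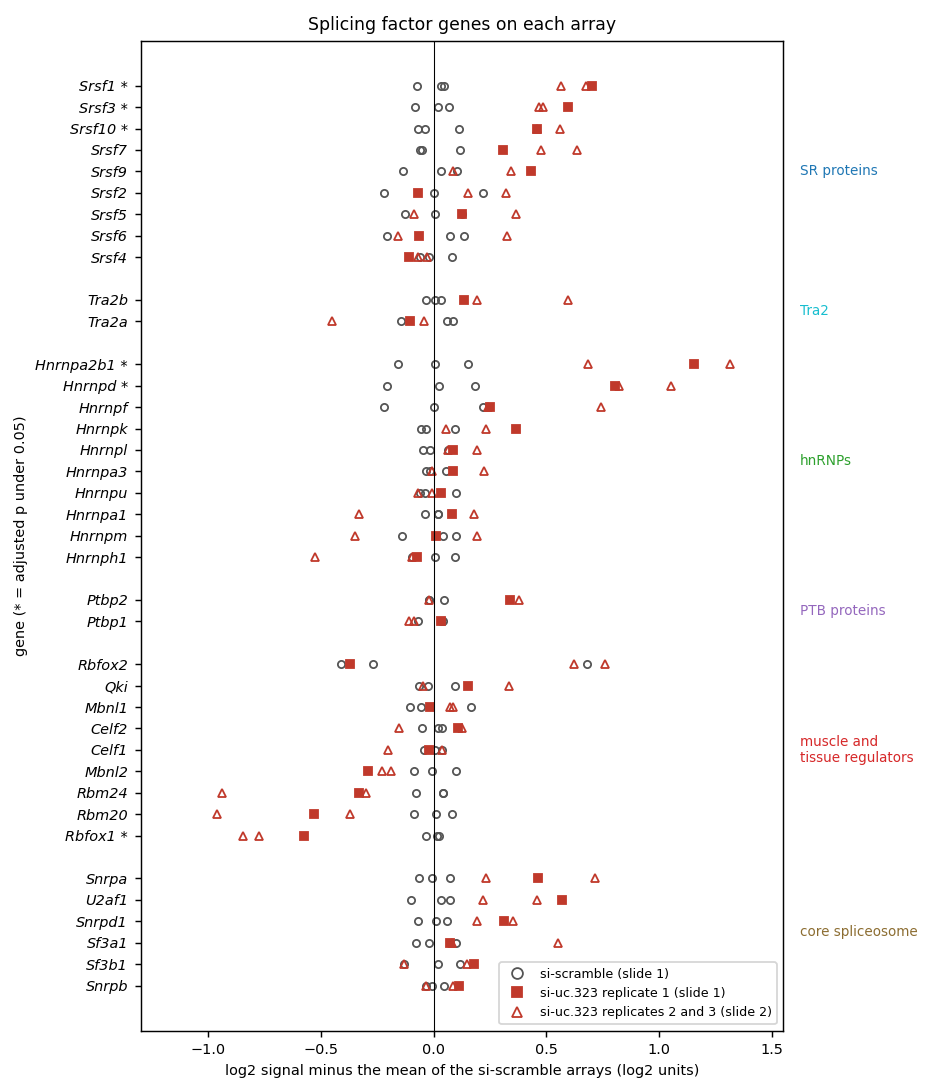
Log2 signal of each of the 38 measured splicing factor genes on each array, minus the mean of the 3 si-scramble arrays, ordered by family and by fold change; asterisks mark an adjusted p under 0.05. Grey circles are si-scramble arrays, filled squares si-uc.323 replicate 1 (same slide) and open triangles si-uc.323 replicates 2 and 3 (second slide). All si-uc.323 points of the 6 asterisked genes lie outside the range of their grey circles.

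Promoter windows, the 250 bases before the annotated start, were found for 37 of the 42 members in RefSeq (build GRCr8). They are shown for Srsf1 and Hnrnpa2b1, which were called higher and hold a CCAAT box, for Hnrnpd, called higher without one, and for Rbfox1, the gene called lower. Capitals mark 3 motifs on either strand. The CCAAT box is searched as its own letters. The GC box is searched as GGGCGG. The core of ETS factor sites is searched as CCGGAAG.
Srsf1 (chr10:73336248-73336497, plus strand): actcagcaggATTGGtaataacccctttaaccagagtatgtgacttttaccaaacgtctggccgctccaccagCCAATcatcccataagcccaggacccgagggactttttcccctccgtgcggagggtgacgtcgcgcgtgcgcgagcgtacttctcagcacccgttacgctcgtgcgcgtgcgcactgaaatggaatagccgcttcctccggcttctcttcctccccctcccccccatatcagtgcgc
Hnrnpa2b1 (chr4:81875887-81876136, minus strand): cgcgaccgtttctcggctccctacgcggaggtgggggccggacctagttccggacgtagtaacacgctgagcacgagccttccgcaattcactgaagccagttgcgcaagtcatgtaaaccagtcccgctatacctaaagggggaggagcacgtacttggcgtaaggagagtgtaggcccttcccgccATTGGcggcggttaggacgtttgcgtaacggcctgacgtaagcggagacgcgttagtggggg
Hnrnpd (chr14:9919507-9919756, plus strand): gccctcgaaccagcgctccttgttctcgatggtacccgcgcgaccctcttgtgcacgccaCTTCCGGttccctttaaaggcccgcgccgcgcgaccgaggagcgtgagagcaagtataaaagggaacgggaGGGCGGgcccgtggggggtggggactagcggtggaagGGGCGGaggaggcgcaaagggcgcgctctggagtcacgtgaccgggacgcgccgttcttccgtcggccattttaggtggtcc
Rbfox1 (chr10:8999392-8999641, minus strand): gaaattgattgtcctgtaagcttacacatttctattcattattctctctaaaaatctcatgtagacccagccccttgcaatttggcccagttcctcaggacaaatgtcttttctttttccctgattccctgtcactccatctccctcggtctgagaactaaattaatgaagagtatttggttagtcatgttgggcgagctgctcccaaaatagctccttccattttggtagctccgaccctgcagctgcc

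Srsf1 has 2 CCAAT matches and Hnrnpa2b1 has 1. Hnrnpd has 2 GGGCGG matches and 1 CCGGAAG match, and the Rbfox1 window has no match and the lowest GC content of the 4, 44.0%, against 58.8% to 66.8%. A gene with several starts, as Rbfox1 is known to have, may use another promoter in heart. CCAAT was found in 4 of the 5 genes called higher (the exception was Hnrnpd), in 43.2% of the 37 member windows and in 34.3% of all 27457 windows. GGGCGG was found in 2 of those 5, in 70.3% of member windows and in 32.4% of all windows, and CCGGAAG in 1 of 5, 21.6% and 7.74%. Other motifs were searched but not marked. TATAAA was found in 2 of those 5 (Hnrnpd and Srsf3), in 10.8% of member windows and in 13.1% of all. CACGTG, an E-box, was in 2 of 5 (the same genes), 8.11% and 5.79%. The cyclic AMP response element TGACGTCA was in 0 of 5, 2.7% and 1.7%. The median GC content was 61.2% for members and 52.0% for all windows. A match is a description of letters and not of binding, and for a gene with several windows the first listed was read.

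The SR proteins carry RNA-binding domains and an arginine-serine tail. Of 9 measured genes, 3 were called higher, where 3.18% of all features were. The family median was 0.29, against 0.04 for all features. Srsf1, the splicing factor first known as SF2/ASF and needed for the postnatal splicing of a calcium-dependent kinase gene in the heart, read -0.25, -0.37 and -0.26 on si-scramble replicates 1, 2 and 3. It read 0.41, 0.27 and 0.38 on si-uc.323 replicates 1, 2 and 3. All si-uc.323 arrays were higher. The log2 fold change, here and below with the SE of the limma fit over 3 and 3 arrays, was 0.64 ± 0.11 (adjusted p = 0.0279), a 1.56-fold difference. A second, dimmer Srsf1 probe read -1.71, -1.50 and -1.78 against -1.11, -0.88 and -0.85, a log2 fold change of 0.71 ± 0.13. Both probes of Srsf1 therefore separated the groups in the same direction.

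Srsf3, the smallest SR protein, which also aids export of messenger RNA, read 1.61, 1.66 and 1.51 in si-scramble and 2.19, 2.08 and 2.06 in si-uc.323. The groups were apart, with a log2 fold change of 0.52 ± 0.11 (adjusted p = 0.0415). Its dimmer probe read -1.39, -1.59 and -1.43 against -1.37, -1.39 and -1.70, where the groups overlapped (log2 fold change -0.02 ± 0.14). The call on Srsf3 thus rested on 1 of its 2 probes. Srsf10, an SR protein that represses splicing in its dephosphorylated form, read -1.39, -1.21 and -1.36 in si-scramble and -0.86, -0.76 and -0.86 in si-uc.323. Its single probe gave 0.49 ± 0.11 (adjusted p = 0.0478), with no overlap.

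Srsf7 was also apart, at 0.87, 0.69 and 0.70 against 1.06, 1.39 and 1.23, but did not pass (0.47 ± 0.13, adjusted p = 0.0724). Srsf9 (0.29 ± 0.14) overlapped between groups, by 1 si-uc.323 array. Srsf2, Srsf4, Srsf5 and Srsf6 had log2 fold changes between -0.07 and 0.13 and overlapping groups. Their 95% intervals all included 0 and ran from -0.36 at the lowest to 0.50 at the highest. The Tra2 proteins, which bind GAA-rich exonic enhancers, did not pass. Tra2b read 1.49, 1.53 and 1.56 against 1.66, 2.12 and 1.72, apart but with replicate 2 well above the other two (0.31 ± 0.15, adjusted p = 0.221). Tra2a read 2.86, 2.66 and 2.89 against 2.70, 2.76 and 2.35, with overlap (-0.20 ± 0.15, adjusted p = 0.408).

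Among the hnRNPs, abundant proteins that coat new transcripts, 2 of 10 measured genes were called higher, where 3.18% of all features were. The family median was 0.10 by the brightest probe (all features 0.04) and 0.41 by the mean over a gene's probes (all features 0.06). Hnrnpa2b1, which binds splicing silencers and RNA modified with N6-methyladenosine, had the largest log2 fold change of the 38 brightest probes. It read -1.57, -1.88 and -1.72 in si-scramble and -0.57, -1.04 and -0.41 in si-uc.323. The lowest si-uc.323 array, replicate 2, still lay above all controls, and the log2 fold change was 1.05 ± 0.18 (adjusted p = 0.0302), a 2.07-fold difference. Hnrnpd, also called AUF1, which binds AU-rich elements and controls the decay of messenger RNA, read -1.0, -0.84 and -1.23 in si-scramble. It read -0.22, -0.20 and 0.03 in si-uc.323, higher on all 3 arrays, by 0.89 ± 0.14 (adjusted p = 0.0267), a 1.86-fold difference.

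Hnrnpf was apart but did not pass, at 3.52, 3.30 and 3.08 against 3.55, 4.04 and 3.54 (0.41 ± 0.18, adjusted p = 0.195). The other 7 measured hnRNPs overlapped between groups on their brightest probe, with log2 fold changes from -0.23 (Hnrnph1) to 0.22 (Hnrnpk). Hnrnpu, a nuclear matrix protein, lay close together on all arrays, between 2.60 and 2.77 (-0.02 ± 0.11, 95% interval -0.27 to 0.24). Ptbp1, which represses exons next to pyrimidine-rich tracts, read 1.81, 1.91 and 1.92 against 1.91, 1.79 and 1.77 (-0.06 ± 0.11, adjusted p = 0.761). Its paralogue Ptbp2, best known from neurons, read -1.26, -1.33 and -1.33 against -0.97, -1.33 and -0.93 (0.23 ± 0.14, adjusted p = 0.315). Both PTB genes overlapped between groups. Hnrnpa1 has near-identical processed copies in mammalian genomes, and how far its probes also read them was not tested.

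**Figure D2:**
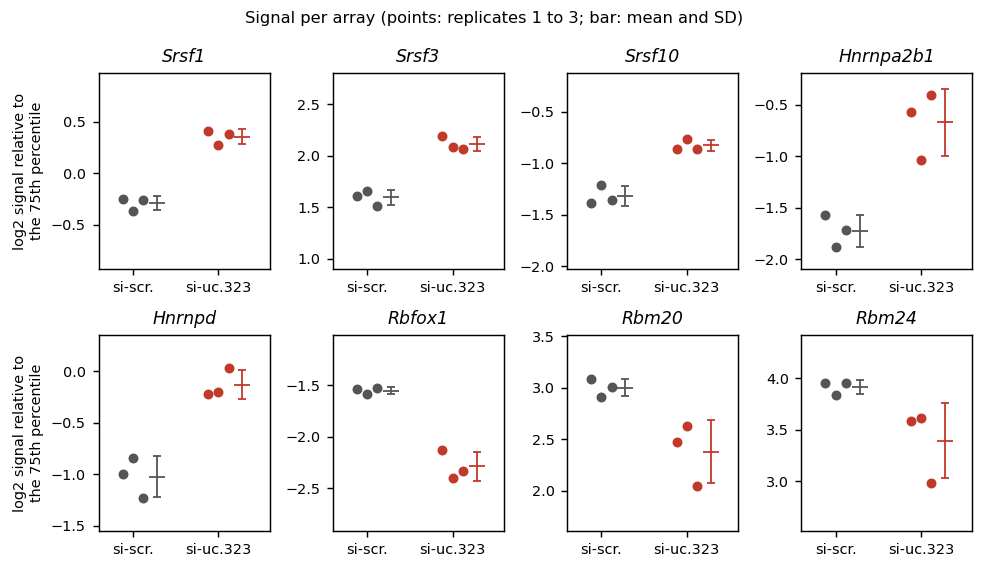
Log2 signal relative to the array's 75th percentile for the 6 genes with an adjusted p under 0.05 and for Rbm20 and Rbm24, on si-scramble (grey) and si-uc.323 (red) arrays; points are replicates 1 to 3 from left to right and bars give mean and SD. All panels span the same number of log2 units; the groups are apart in each, and si-uc.323 replicate 3 lies lowest for Rbm20 (2.04) and Rbm24 (2.98).

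Of the 9 muscle and tissue regulators, 1 was called and it was lower, where 2.45% of all features were. The family median was -0.06, against 0.04 for all features. It was 0.02 by the mean over a gene's probes (all features 0.06) and -0.28 within slide 1 (all features -0.04). Rbfox1, which binds a short UGCAUG motif near alternative exons of muscle and brain, read -1.54, -1.59 and -1.53 in si-scramble and -2.13, -2.40 and -2.33 in si-uc.323. It fell by 0.74 on the log2 scale (SE 0.12, adjusted p = 0.0267), a 1.67-fold difference with no overlap. Rbm20, which represses exons of titin and is mutated in a form of dilated cardiomyopathy, read 3.08, 2.91 and 3.01 against 2.47, 2.63 and 2.04. The groups were apart but the gene did not pass (-0.62 ± 0.17, 95% interval -1.02 to -0.22, adjusted p = 0.0725). Its dimmer probe had the opposite sign, at -4.30, -4.05 and -4.18 against -4.06, -3.85 and -3.57 (0.35 ± 0.15, adjusted p = 0.185), so no direction is stated for the gene.

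Rbm24, a muscle protein that promotes sarcomere exons, read 3.96, 3.84 and 3.96 against 3.59, 3.62 and 2.98 (-0.52 ± 0.19, adjusted p = 0.1255). The groups were apart, replicate 3 of si-uc.323 was the lowest, and the dimmer probe gave -0.13 ± 0.11. Mbnl2 read 1.78, 1.89 and 1.70 against 1.50, 1.56 and 1.60 (-0.23 ± 0.11, adjusted p = 0.207), with a dimmer probe at 0.42 ± 0.19. Like Mbnl1, it encodes a muscleblind protein that favours adult exon patterns. The si-uc.323 arrays lay below all controls on the brighter probe and above all controls on the dimmer one, so no direction is stated for it.

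The remaining muscle regulators overlapped between groups. Mbnl1 read -3.11, -2.84 and -3.06 against -3.02, -2.92 and -2.93 (0.05 ± 0.12). The CELF proteins oppose the muscleblind proteins in heart development. Celf1 read -0.31, -0.36 and -0.28 against -0.34, -0.28 and -0.52 (-0.06 ± 0.11), and Celf2 read -1.72, -1.65 and -1.63 against -1.56, -1.82 and -1.54 (0.02 ± 0.12). Qki, a STAR-family protein of muscle and glial splicing, read -2.10, -1.94 and -2.06 against -1.88, -2.08 and -1.70 (0.15 ± 0.13). For Mbnl1, Celf1, Celf2 and Qki the 95% intervals lay between -0.33 and 0.46. Rbfox2 was the most variable member. It read -3.06, -2.11 and -3.20 against -3.16, -2.17 and -2.03, with 1 control and 2 si-uc.323 arrays high and the other arrays low (0.34 ± 0.38, 95% interval -0.55 to 1.23).

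The core spliceosome genes had positive values in 6 of 6 measured members, where 54.9% of all features had. Their median was 0.26, against 0.04 for all features. The groups were apart on the higher side for 3 of them, where 18.6% of all features were. At the adjusted threshold limma called 0 of them. At an unadjusted p under 0.05 it called 3, all higher, where 16.1% of all features were. Snrpa, a protein of the U1 particle, read -2.45, -2.39 and -2.31 against -1.92, -2.15 and -1.67 (0.47 ± 0.15, adjusted p = 0.0969). U2af1, which reads the AG at the end of an intron, read 3.24, 3.11 and 3.28 against 3.78, 3.67 and 3.43 (0.41 ± 0.13, adjusted p = 0.099). Snrpd1, a Sm ring protein shared by the spliceosomal particles, read 1.16, 1.08 and 1.21 against 1.46, 1.50 and 1.34 (0.29 ± 0.11, adjusted p = 0.142). In each of these genes all si-uc.323 arrays lay above all si-scramble arrays. Sf3a1 (0.24), Sf3b1 (0.06) and Snrpb (0.05) overlapped between groups.

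Of the 38 members, 15 had several probes on the array. In 14 of these 15 genes the second brightest probe had a more positive log2 fold change than the brightest, with a median gap of 0.43. Over all 1904 genes with several probes the same held in 75.8%, with a median gap of 0.21, so the direction of the gap was common on these arrays. The probes of 7 members differed in sign. The dimmer Hnrnpa1 probe read -0.30, -0.46 and -0.34 against 0.58, 0.31 and 0.59 (0.86 ± 0.12, adjusted p = 0.0221 over all probes), where the brightest read 4.75, 4.69 and 4.75 against 4.81, 4.91 and 4.40 (-0.03 ± 0.15). Hnrnpk showed the same pattern within 1 sign: its brightest probe gave 0.22 ± 0.12 and its dimmer probe 0.65 ± 0.12 (adjusted p = 0.0315).

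Hnrnpa3 had 4 probes on 2 transcript accessions. The 2 probes of the first accession gave 0.10 ± 0.11 and 0.23 ± 0.19, and those of the second, both dim, gave 1.07 ± 0.20 (adjusted p = 0.0331) and 0.32 ± 0.35. The dimmer Tra2b probe read -2.23, -2.52 and -2.23 against -1.53, -1.77 and -1.34 (0.79 ± 0.15, adjusted p = 0.0361). Hnrnph1 (-0.23 on the brightest probe, 0.74 on the other) and Hnrnpm (-0.05 and 0.69) differed in sign without either probe passing. With every probe tested on its own, 10 of 55 member probes were called higher, 5 of them among the 17 less bright probes, where 3.48% of all probes were called higher. Only 1 member probe, that of Rbfox1, was called lower, where 2.41% of all probes were. Whether the probes of a gene read different transcripts was not tested.

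**Figure D3:**
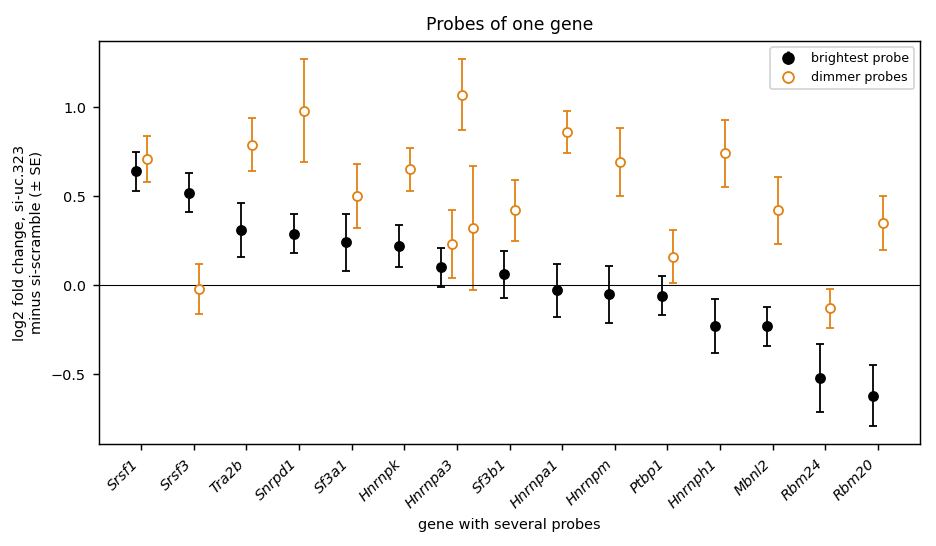
Log2 fold change (si-uc.323 minus si-scramble, ± SE of the fit, 3 and 3 arrays) of each probe of the 15 splicing factor genes with several probes; filled black points are the brightest probe of a gene and open orange points the dimmer ones. The second brightest probe lies above the brightest in 14 of 15 genes, the exception being Srsf3 (0.52 and -0.02).

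Calls over the whole array changed when single arrays were left out. Of 19916 features, 1122 were called with all 6 arrays, 0, 18 and 0 without si-scramble replicates 1, 2 and 3, and 853, 2738 and 433 without si-uc.323 replicates 1, 2 and 3. At an unadjusted p under 0.05 in the same limma fits, 5574 features passed with all 6 arrays. In the same order of left-out arrays, 3852, 4013 and 3387, and 5642, 6857 and 5033 passed. Leaving out an array also makes a group smaller, and that part was not separated. Among the members, none of the 6 passed without si-scramble replicate 1 (adjusted p 0.113 to 0.180), replicate 2 (0.0879 to 0.137) or replicate 3 (0.138 to 0.221), or without si-uc.323 replicate 3 (0.0506 to 0.0667). Without si-uc.323 replicate 1 the calls on Hnrnpd and Rbfox1 held, and without replicate 2 the calls on all 6 held, joined by Rbm20 and Snrpa. With single arrays left out, the log2 fold changes ranged from 0.60 to 0.68 for Srsf1, 0.48 to 0.55 for Srsf3, 0.46 to 0.55 for Srsf10, 0.92 to 1.23 for Hnrnpa2b1, 0.79 to 0.99 for Hnrnpd and -0.82 to -0.68 for Rbfox1. The 6 log2 fold changes kept their sign in all 20 alternative analyses, which is a description, since the same arrays chose them. Within slide 1, where si-uc.323 had replicate 1 alone, they were 0.70 for Srsf1, 0.60 for Srsf3, 0.46 for Srsf10, 1.15 for Hnrnpa2b1, 0.81 for Hnrnpd and -0.58 for Rbfox1. These are values of 1 culture against 3. A fit there has to assume that the lone array varies like the controls, and it called 0 of 19916 features (5895 at an unadjusted p under 0.05), so it says nothing of whether single calls hold. Blocking on slide, where the contrast also rests on replicate 1, called 8 of 19916 features and none of the 6 members (adjusted p 0.169 to 0.282).

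Scaling arrays to a common median in place of the 75th percentile moved the median of all features from 0.04 to -0.09 and turned 634 higher and 488 lower features into 400 and 755. Under that scaling the family medians were 0.15 for SR proteins, 0.13 for the core spliceosome, -0.03 for hnRNPs and -0.20 for muscle regulators, and those of the Tra2 pair and the PTB pair were -0.08 and -0.05. The hnRNP, Tra2 and PTB medians thus changed sign. Such a scaling moves every log2 fold change by the same amount, so these changes are not particular to the families. With the mean over a gene's probes in place of the brightest probe, the medians were 0.41 for hnRNPs, 0.39 for the core spliceosome, 0.25 for SR proteins, 0.17 for Tra2, 0.14 for PTB and 0.02 for muscle regulators, the last with changed sign. Hnrnpa2b1 (0.91), Hnrnpd (0.76) and Rbfox1 (-0.87) passed after the median shift, while Srsf1 (0.51, adjusted p = 0.0717), Srsf3 (0.39, adjusted p = 0.142) and Srsf10 (0.36, adjusted p = 0.15) did not.

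The wider splicing machinery was read from 181 further genes listed by function, of which 141 were measured. Of these, 7 were called higher, or 4.96%, where 3.18% of all features were called higher. Limma called 0 lower, where 2.45% of all features were. In both directions together 4.96% were therefore called, where 5.63% of all features were. At an unadjusted p under 0.05 in the same fit, 30 were higher, where 16.1% of all features were, and 5 were lower, where 11.9% were. Their median log2 fold change was 0.10, against 0.04 for all features. The list of hnRNPs and hnRNP-like proteins had 3 of 28 measured genes called higher, a median of 0.08 and values from -0.56 to 1.25. Its Hnrnpdl, a relative of Hnrnpd, had the largest rise of the 141 genes. It read -2.65, -2.38 and -2.61 against -1.62, -1.40 and -0.87 (1.25 ± 0.20, adjusted p = 0.0267). Rbm3, a cold-inducible RNA-binding protein, read -1.66, -1.48 and -1.25 against -0.23, -0.54 and -0.22 (1.13 ± 0.15, adjusted p = 0.0202). Hnrnph2 rose by 0.59 ± 0.11 (adjusted p = 0.0367). All si-uc.323 arrays exceeded all controls in these 3 genes.

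Of 29 measured particle proteins, Sart1, which recruits the U4/U6.U5 particle, rose by 0.88 ± 0.13 (adjusted p = 0.0254) and Lsm4, part of the Lsm ring, by 0.68 ± 0.14 (adjusted p = 0.0427). Ctnnbl1, a partner of the Prp19 complex, rose by 0.73 ± 0.15 (adjusted p = 0.0413), 1 of 22 genes of that complex and the exon junction complex, whose median was 0.23. Srek1, an SR-related protein, rose by 1.02 ± 0.21 (adjusted p = 0.0443), 1 of 15 genes of its list. Over all features, 3.18% were called higher. In the lists of SF3 and branch-site proteins (12 genes), SR protein kinases (9) and other tissue regulators (26) limma called 0, with 3, 3 and 3 genes at an unadjusted p under 0.05, where 28% of all features were. The smallest adjusted p there were those of Puf60 (0.41 ± 0.11, 0.0742) and Sf3b2 (0.46 ± 0.13, 0.0789), of Srpk3, the muscle SR protein kinase (-0.53 ± 0.14, 0.0664), and Dyrk1a (0.58 ± 0.18, 0.0938), and of Ybx3 (-0.50 ± 0.13, 0.0673) and Khdrbs1 (0.34 ± 0.13, 0.145).

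**Figure D4:**
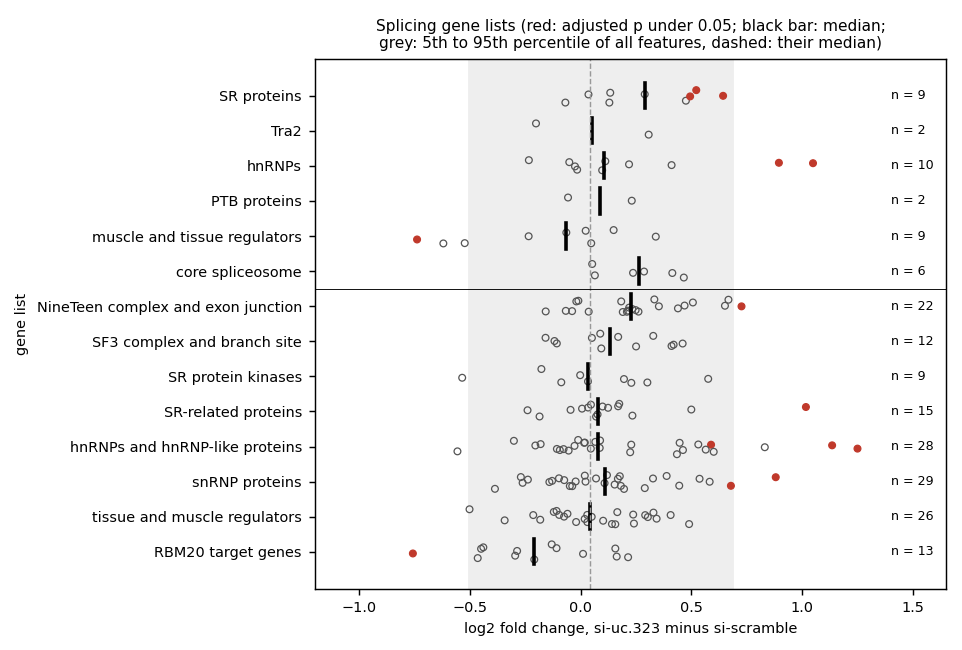
Log2 fold change (si-uc.323 minus si-scramble) of each measured gene in the 6 families of the described list (above the line), in 7 further lists of splicing genes and in genes whose transcripts RBM20 is known to splice (below it); red points have an adjusted p under 0.05 and black bars are list medians. The grey band spans the 5th to 95th percentile of all features, -0.51 to 0.69, and the red points of Hnrnpdl, Rbm3, Hnrnpa2b1, Srek1, Hnrnpd, Sart1 and Ctnnbl1 lie above it.

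Genes whose exons RBM20 is known to regulate were read for their total signal. Of 15 listed, 13 were measured, and titin was not among those. Ryr2 and Tnnt2 were also counted among the cardiomyocyte markers above. Among the 13, 1 was called lower, where 2.45% of all features were. The median log2 fold change was -0.21, against 0.04 for all features. The groups were apart for 5 on the lower side (16.5% of all features) and for 1, Nexn, on the higher side (18.6%). Sh3kbp1, an adaptor of endocytosis, fell from 3.16, 2.85 and 3.15 to 2.32, 2.45 and 2.12 (-0.76 ± 0.14, adjusted p = 0.0346). Ryr2, the calcium release channel (-0.46 ± 0.15, adjusted p = 0.1), and Trdn, triadin, which anchors it (-0.45 ± 0.14, adjusted p = 0.0966), were apart and lower without passing. Camk2d (0.16 ± 0.20) and Cacna1c (-0.13 ± 0.11) overlapped. These values say nothing of exon choice.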

How the data were processed

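Total RNA of 6 cultures, 3 per siRNA, was labelled with Cy3 and hybridised to 1-colour arrays. Per the file headers and the submitters' processing notes, the authors scanned and extracted them with Agilent Feature Extraction 11.0.1.1. The deposited values are processed spot intensities, already background-corrected per the file headers. The authors' series table holds log2 values, whose normalization is not given in the sources used here. Its column medians are all 6.511, and it was used as an alternative.

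Control spots and outlier spots (322 to 594 of 42877 per array) were left out and spots of a probe averaged. Log2 intensity minus each array's 75th percentile was fitted with limma 3.58.1 (R 4.3.3) over the 2 groups, with Benjamini-Hochberg adjustment over 19916 features and a threshold of 0.05. A probe had to be well above background on all 3 arrays of a group. Of 30367 probes, 18005 were named by accession, and the brightest probe stood for a gene. Arrays give no read depth; their number limits the precision. The model was tested on simulated data with independent noise, the same spread in both groups and no slide effect. That test therefore says nothing of the unequal spread or the slides of these arrays.

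Members, functional lists and marker lists were chosen with earlier results of these data known. All called members, the muscle and PTB members, the 2 largest changes in each other family, and up to 4 called genes (or the 2 lowest adjusted p) of each further list are named. Other members are given by range or value. Alternatives covered background correction, scaling, filters, probes, priors, weights, blocks and left-out arrays. No probe for uc.323 itself was used here, so the knockdown was not checked. Python 3.11.15, pandas 2.3.3 and matplotlib 3.10.9 were used for tables and plots.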

Additional observations from a re-analysis of the deposited data

How the results depend on the processing

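The 6 called members kept their sign in all 20 alternatives. The 5 members called higher became 11 with array weights, 3 with normexp, 2 after a median shift and 0 without the background filter, with the slide as a block or within slide 1 (the within-slide analysis and cyclic loess were chosen after seeing the data), and 0 to 6 with single arrays left out. The 1 called lower became 3 with array weights, 2 with cyclic loess or a trended robust prior, 0 without the filter, with the slide block or within slide 1, and 0 to 2 with arrays left out. The members' median of 0.12 became 0.07 with array weights, 0.25 with the mean over probes and -0.01 after a median shift, and 0.10 to 0.13 with arrays left out. The 7 other splicing genes called higher became 31 with array weights, 14 with the trended prior, 13 with cyclic loess, 4 after a median shift, 0 without the filter, with the slide block or within slide 1, and 0 to 21 with arrays left out. The 0 called lower by limma (5 at an unadjusted p under 0.05) became 7, 2, 1 and 1 with array weights, the trended prior, cyclic loess and normexp, and 0 to 2 with arrays left out. Calls moved over the whole array too: 634 higher and 488 lower features became 2840 and 2417 with array weights, 991 and 842 with the trended prior, 856 and 1016 with cyclic loess, 376 and 574 with normexp, 704 and 890 with quantile normalization, 400 and 755 after a median shift, 3 and 5 with the slide block, and 0 of 27493 without the filter (5065 at an unadjusted p under 0.05) and 0 of 19916 within slide 1 (5895).

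With the replicate number as a block, 2 members were called higher (Hnrnpa2b1, Hnrnpd) and Rbfox1 lower, and 660 features in place of 1122. The deviations of same-numbered arrays correlated at 0.20, 0.39 and -0.12, and si-scramble replicate 3 correlated best with si-uc.323 replicate 1 (0.48), so the numbers were not taken as pairs.

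Some uncalled values changed sign. Celf2 was -0.04 with cyclic loess, -0.11 after a median shift or normexp, -0.07 with quantile normalization or the series table, and -0.03 to 0.11 with single arrays left out. Mbnl1 was -0.07 with cyclic loess or normexp, -0.09 after a median shift, -0.08 with quantile normalization or the series table, -0.02 with the slide block or within slide 1 and -0.01 without si-scramble replicate 1. Celf1 was 0.01 without si-uc.323 replicate 3. With the mean over probes Mbnl2 was 0.09 in place of -0.23, and Ptbp1 0.05. With the slide block or within slide 1, Ptbp1 was 0.03, and Rbfox2 was -0.37 in place of 0.34. A median shift moves all features by the same amount, and the cause of the other shifts was not tested.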

Other observations

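Fold change varied with brightness over the whole array. Over 5 bins of all features, equal in number and ordered from dimmest to brightest, the median log2 fold change was 0.14, 0.12, 0.09, -0.00 and -0.07. The splicing factor members, by their brightest probe, lay in bins 3 to 5: 7 in bin 3 (median 0.15), 8 in bin 4 (0.39) and 23 in bin 5 (0.05). Positive values were found in 6 of 7, 7 of 8 and 13 of 23 of them, against 60.4%, 49.6% and 37.1% of all features in those bins.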
